A study of Mus musculus with 4 samples.

Results

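Conventional type 2 dendritic cells (cDC2) are antigen-presenting leukocytes that take up material in the tissue, migrate to the draining lymph node and prime CD4 T cells there. They were taken here from CD45+ leukocytes of the mouse colon, read by single-cell RNA-seq in droplets, from wild-type (WT) C57BL/6 mice. A cell was counted as a cDC2 by its transcripts alone. It had at least 500 UMIs (unique molecular identifiers, 1 per captured RNA molecule), at least 200 genes and at most 10% mitochondrial UMIs, and at least 2 UMIs of Cd209a and Clec10a together. Cells with more than 2 UMIs of C1qa, C1qb and C1qc (macrophages), any UMI of Siglech (plasmacytoid cells) or of Xcr1 and Clec9a (type 1 dendritic cells), or more than 1 UMI of Ly6c2 and Chil3 (monocytes) were left out. So were cells with more than 1 UMI of the CD3 genes or of the Cd79 genes, or with 0.5% or more of their UMIs from Jchain. This gave 155 cDC2 among 20428 kept cells of 24915 barcodes.

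The study compared mice restrained daily for 7 days with control mice, in 2 libraries each (control 1 and 2, stress 1 and 2). All groups shared strain and genotype, and no further allele or agent is named. The labels do not say how many mice each library holds or whether they were kept separately, so a p-value here reflects the spread among 4 libraries only, and that spread may be technical. By its title the series concerns the part of the enteric nervous system between psychological stress and gut inflammation. The contrast made here is cDC2 of stressed against control mice, free of plasmacytoid cells.

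Control 1 gave 51 cDC2 with 401741 UMIs in all, control 2 gave 24 with 167135, stress 1 gave 50 with 288736 and stress 2 gave 30 with 316136. The median cDC2 held 7686, 5932, 5753 and 11022 UMIs in that order. The share of all barcodes over the mitochondrial limit was 12.9 and 11.1% in the controls and 18.8 and 26% under stress. With up to 20% mitochondrial UMIs allowed, 113 genes changed between stress and control, 112 of them among the 126 described below. No cDC2 barcode occurred in more than 1 library, while pairs of libraries shared 3 to 12 barcodes among all kept cells. Scrublet, which scores doublets, marked 0, 1, 5 and 1 of the cDC2 in the 4 libraries.

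Both naming genes were detected in 92 of the 155 cells, Cd209a without Clec10a in 46 and Clec10a without Cd209a in 17. Just outside the threshold stood 55 otherwise eligible cells with a sum of 1 UMI, and just inside it 17 with a sum of 2 and 15 with a sum of 3, while 65 cells had 10 or more. Exclusion by the macrophage sum took the eligible cells from 376 to 282, the Siglech limit to 245, the type 1 limit to 228 and the monocyte limit to 183. The lymphocyte limits took them to 155. At the limits themselves stood 5 cells with 2 C1q UMIs, 14 with 1 Ly6c2 or Chil3 UMI, 2 with 1 CD3 UMI and 6 with 1 Cd79 UMI.

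The genes with the largest ratio to the rest of the kept cells, apart from the naming pair, were Mgl2, Tnip3, Il1r2, Wnt11, Eps8, Clec4b1, Ifitm6 and Ccl22. This is a description and no test, since the cells were chosen on the same counts. Mgl2, a C-type lectin of the same receptor family as Clec10a, stood at 446 CPM (UMIs scaled to equal library totals) on average in cDC2 and at 10.9 CPM in the rest. Tnip3, an inhibitor of NF-kB signalling, stood at 731 against 23.5 CPM. Flt3, the growth factor receptor of dendritic cells, was read in 32 of 75 control and 28 of 80 stress cells, and Zbtb46, a transcription factor of conventional dendritic cells, in 14 and 14. Of 20 macrophage markers 3 had no UMI in cDC2, namely Folr2, Lyve1 and C1qc, the last of which the membership rule itself limits. Apoe had 393 UMIs in the controls and 320 under stress, and Pltp 111 and 40. Of 10 neutrophil markers 5 had none, S100a8 and S100a9 among them. The summed neutrophil list stood at 2312 and 1019 CPM in the controls and 895 and 597 CPM under stress, nearly all of it from Cxcl2 and Il1r2, and Csf3r had 3 control and 4 stress UMIs. Of 12 markers of NK and innate lymphoid cells 5 had none, Ncr1 among them, and Klre1 had 6 control and 8 stress UMIs.

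A group of 7 control cells went against the label in some genes and with it in others. They were the 7 cells, 2 in control 1 and 5 in control 2, with any UMI of Retnla, a secreted protein of alternatively activated macrophages, and they held 8.53% of the control cDC2 UMIs. No Flt3 UMI was read in them, against 106 CPM in the other control cells. Lyz2, the lysozyme of myeloid cells, stood at 11369 CPM in them and at 2708 CPM in the other control cells, and the mannose receptor Mrc1 at 1071 and 99.9 CPM. The MHC class II gene H2-Ab1 stood at 6962 and 12709 CPM. Cd209a and Mgl2 were read in all 7, at 515 and 474 CPM against 1282 and 730.3 CPM in the other control cells, and Clec10a in 2 of them. Tnip3 stood higher in the 7 cells, at 1462 against 986 CPM, as did the monocyte receptor Ccr2, at 556 against 292 CPM, and the macrophage receptor Csf1r stood at 124 and 121 CPM. These cells were singled out after their values were seen, and the results that rest on them are given with and without them.

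In the background, interferon gamma made by T and NK cells acts on a palindromic element called GAS in the promoters of chemokines, GTPases and antigen-processing genes. Type I interferon acts mainly on a different element, the ISRE. Interleukins 4 and 13, the cytokines of type 2 immunity, act through STAT6 and raise genes such as Retnla, Ccl17 and the Mgl lectins in macrophages and dendritic cells.

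Between stress and control, 126 of 3766 genes tested in cDC2 changed (3.35%), 77 upwards (2.04%) and 49 downwards (1.3%), by edgeR's quasi-likelihood test on UMIs summed per library, at a Benjamini-Hochberg adjusted p under 0.05 over all genes tested. Among the genes that rose was Jchain, which the membership rule limits, so its call is no finding about these cells. The median log2 change of all genes was -0.0085. Both stress libraries lay above both controls for 20.8% of all genes tested and below both for 21.5%. DESeq2 called 41 of 3508 genes (1.17%), 28 upwards (0.798%) and 13 downwards (0.371%), and all 41 were among the 126. Without stress replicate 2 the count was 42, without stress replicate 1 it was 83, and without the 7 cells with Retnla it was 98 (66 upwards and 32 downwards), of which 63 and 27 were in the first set. All CPM values below are scaled by edgeR's TMM factors, each log2 change is stress against control from edgeR, and the filter keeps a gene that reaches its minimum in only 1 group, so counts over lists are descriptions. Counts of called genes in a list stand beside the 2.04% of all genes tested that rose and the 1.3% that fell.

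**Figure D1:**
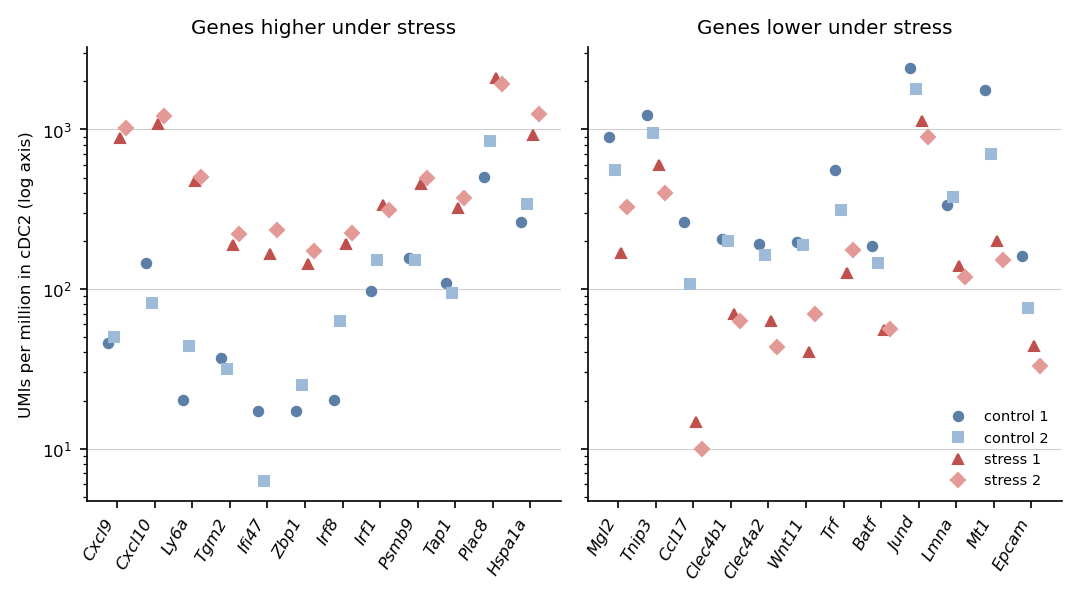
UMIs scaled to equal totals (CPM) in cDC2 (log axis, TMM-scaled) of 12 genes higher and 12 genes lower under stress, 1 point per library (circles and squares, controls 1 and 2; triangles and diamonds, stress 1 and 2). Both stress libraries lie on 1 side of both controls for every gene drawn.

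The chemokine ligands of CXCR3, a receptor on activated T and NK cells, both rose. Cxcl9 (GRCm38 chr5:92321347-92328079) stood at 45.7 and 50.3 CPM in the controls and 879.8 and 1018 CPM under stress. The groups did not overlap, and the log2 change was 4.31 ± 0.30 (SE; adjusted p = 1.61e-09) by edgeR. Cxcl10 (chr5:92346638-92348889), its neighbour with the same receptor, stood at 146 and 81.8 CPM in the controls and 1079 and 1219.7 CPM under stress, without overlap, a log2 change of 3.25 ± 0.28 (SE; adjusted p = 5.63e-08). A few cells carried much of both. Cxcl9 was read in 10 of 75 control cells and 26 of 80 stress cells, with 20.7% of the stress UMIs in 1 cell. Cxcl10 was read in 12 of 75 control cells and 24 of 80 stress cells, with 20.6% in 1 cell. In control 2 a single cell held all 8 UMIs of Cxcl9 and all 13 of Cxcl10, against 9 and 11 cells with them in control 1. The nearness of the 2 control values of Cxcl9 thus rests on 1 cell. The Cxcl10 call was lost when the identity threshold was raised to 3 UMIs (log2 change 3.99, adjusted p = 0.157 by edgeR). The list of 15 chemokines had 8 members tested, of which these 2 rose and Ccl6 fell.

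Of 28 genes listed for the interferon gamma response, 17 were tested, 12 rose and 0 fell, with a median log2 change of 2.81. Of all genes tested, 2.04% rose and 1.3% fell. Both stress libraries lay above both controls for 16 of the 17, beside 20.8% of all genes. The number that rose was between 7 and 14 over all alternatives, and 1 gene, Icam1, fell with no filter on low counts and without control replicate 2. The number that rose was 11 without the 7 cells with Retnla, 9 without stress replicate 2 and 7 by DESeq2.

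The GTPases of this response, which attack membranes around intracellular microbes, included 7 genes that rose. Ifi47 went from 17.2 and 6.29 to 166 and 235 CPM, a log2 change of 3.84 ± 0.47 (SE; adjusted p = 1.49e-05) by edgeR, and Igtp from 8.58 and 6.29 to 77.3 and 123 CPM, a change of 3.61 ± 0.57 (SE; adjusted p = 0.000278). Neither gene's groups overlapped. Controls 1 and 2 held only 6 and 1 UMIs of Ifi47 and 3 and 1 of Igtp, so the size of both changes is uncertain. Among the guanylate-binding proteins, Gbp2, Gbp3, Gbp4, Gbp5 and Gbp7 all rose, by log2 changes of 2.81, 2.06, 2.81, 3.05 and 1.75. Gbp8 and Irgm1 were tested and did not pass. The Gbp genes are close copies whose reads may be exchanged, so the values of single members are uncertain, as are those of the Ifi200 and Ly6 family members named below. Without stress replicate 2 the calls of Igtp (log2 change 3.23, adjusted p = 0.0656), Gbp4 (log2 change 2.89, adjusted p = 0.0556), Gbp5 (log2 change 2.60, adjusted p = 0.324) and Gbp7 (log2 change 1.40, adjusted p = 0.208) were lost, and Gbp4 also lost its call without stress replicate 1 (log2 change 2.77, adjusted p = 0.0702). Gbp7 was not called without the 7 cells with Retnla either (log2 change 2.16, adjusted p = 0.0773). DESeq2 called Gbp2 (adjusted p = 8.82e-06) but not Gbp3, Gbp4, Gbp5 and Gbp7 (adjusted p = 0.157, 0.223, 0.165 and 0.258).

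Serpina3g, a serpin that inhibits lysosomal proteases, went from 0 and 6.29 to 118 and 92.8 CPM and was read in 1 of 75 control cells and 27 of 80 stress cells. Fam26f, of the calcium homeostasis modulator family, went from 0 and 6.29 to 92 and 82.9 CPM and was read in 1 of 75 control cells and 23 of 80 stress cells. The controls held 1 UMI of each gene and stress 60 and 50, so the pooled level was 56.4 times as high for Serpina3g (95% exact counting interval 9.75 to 2266; adjusted p = 6.64e-05 by edgeR) and 47.0 times for Fam26f (8.06 to 1894; adjusted p = 0.000138). Of the 5 listed genes that did not pass, Icam1, an adhesion molecule also driven by NF-kB, was the only one with a negative change, at 755 and 315 CPM in the controls and 250.3 and 219 CPM under stress (adjusted p = 0.0811 by edgeR).

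Of 36 genes listed for type I interferon, 15 were tested, 7 rose and 0 fell, with a median log2 change of 1.46, while 2.04% of all genes tested rose. All 15 had both stress libraries above both controls, beside 20.8% of all genes. Zbp1, a sensor of Z-form nucleic acid that triggers cell death, went from 17.2 and 25.2 to 144 and 172 CPM, a log2 change of 2.97 ± 0.42 (SE; adjusted p = 8.28e-05) by edgeR. Slfn5, a member of the Schlafen family, went from 31.4 and 25.2 to 151 and 169 CPM, a change of 2.43 ± 0.39 (SE; adjusted p = 0.000336). Neither overlapped. Irf7, the factor that amplifies type I interferon, went from 8.58 and 18.9 to 55.2 and 69.6 CPM, a change of 2.35 ± 0.60 (SE; adjusted p = 0.0243), a call lost without control replicate 1 (log2 change 1.71, adjusted p = 0.318), stress replicate 1 (log2 change 2.50, adjusted p = 0.126) and stress replicate 2 (log2 change 2.14, adjusted p = 0.628). Oasl2, Ifi204, Ifi211 and Ms4a4c rose as well, and all 4 calls were lost without stress replicate 2, with log2 changes of 2.05, 1.59, 3.04 and 1.20. Isg15, a ubiquitin-like protein of this response, stood at 143 and 31.5 CPM in the controls and 239 and 312 CPM under stress and did not pass (adjusted p = 0.129). The best-known members Ifit1, Ifit2, Ifit3, Mx1, Oas1a and Rsad2 were too low in these cells to be tested. The number that rose was 2 by DESeq2, 2 without stress replicate 2 and 5 without stress replicate 1.

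**Figure D2:**
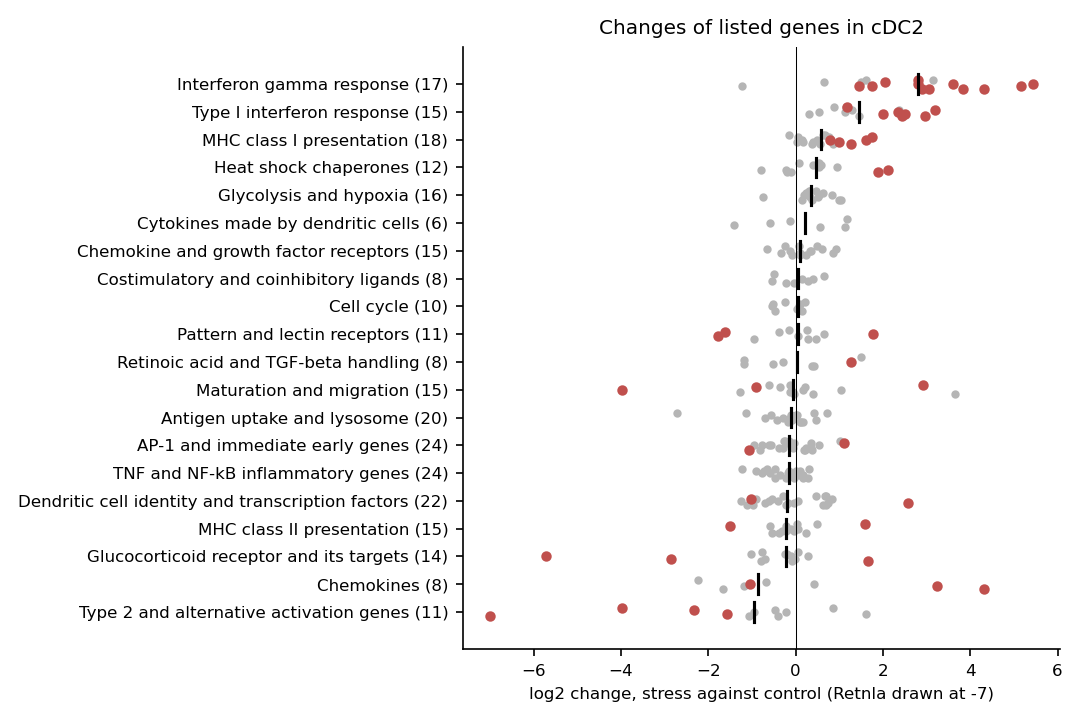
Log2 change, stress against control, of every tested gene of each list (number tested in brackets). Red points passed the test, grey points did not, the black bar is the list median, and Retnla is drawn at -7. The interferon gamma list has its median at 2.81, the type 2 list at -0.94.

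Among interferon regulatory factors Irf1 and Irf8 rose and Irf4 did not pass. Irf1, a factor induced by interferons, went from 97.2 and 151 to 335 and 312 CPM, a log2 change of 1.45 ± 0.29 (SE; adjusted p = 0.00447) by edgeR, a call lost without control replicate 1 (log2 change 1.10, adjusted p = 0.111) and by DESeq2 (log2 change 1.43, adjusted p = 0.103). Irf8, which directs type 1 dendritic cells and is low in cDC2, stood at 20 and 62.9 CPM in the controls and 191 and 225 CPM under stress and was read in 14 of 75 control cells and 35 of 80 stress cells. Its log2 change was 2.57 ± 0.42 (SE; adjusted p = 0.000562) by edgeR. Irf4, the factor cDC2 depend on, went from 103 and 132 to 44.2 and 59.7 CPM and did not pass (log2 change -1.12, adjusted p = 0.113), although both stress libraries lay below both controls. Among 29 genes listed for dendritic cell identity, 22 were tested, Irf8 rose, Rbpj, the nuclear partner of Notch, fell by 1.01 (adjusted p = 0.0427), and the other 20 did not pass, with a median of -0.19. The Rbpj call was lost under 10 of the alternatives, among them each of control replicate 1 (log2 change -0.65, adjusted p = 0.535), stress replicate 1 (log2 change -0.91, adjusted p = 0.318) and stress replicate 2 (log2 change -1.09, adjusted p = 0.269) left out. Klf4, another cDC2 factor, Spi1, the myeloid master regulator, and Batf3 of type 1 cells were among those that did not pass.

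The promoters of genes that rose were searched for the 2 interferon elements on both strands, in 250 bases before to 50 after each RefSeq start (GRCm38.p6). The GAS letters TTCNNNGAA were found for 9 of the 54 genes that rose and have a listed promoter (16.7%), for 255 of 2975 genes tested (8.57%) and for 9.55% of all 27025 listed genes. The ISRE letters, GAAA and GAAA with any 2 bases between them, were found for 14 of the 54 (25.9%), for 147 of the 2975 (4.94%) and for 3.99% of all listed genes. The 54 include Jchain, which the membership rule limits and which held neither. Among 35 genes that fell and have a listed promoter, 3 held the first and 2 the second. The promoters shown are those of the GTPases Igtp and Gbp5, which held both elements, of Cxcl10, which held an ISRE, and of Irf8 (the first of its 2 listed promoters), which held 2 GAS matches. Capitals mark the matches, 5′ to 3′, and a match is a match of letters only. Cxcl9 held neither in this window, which says nothing about factors elsewhere.
Igtp: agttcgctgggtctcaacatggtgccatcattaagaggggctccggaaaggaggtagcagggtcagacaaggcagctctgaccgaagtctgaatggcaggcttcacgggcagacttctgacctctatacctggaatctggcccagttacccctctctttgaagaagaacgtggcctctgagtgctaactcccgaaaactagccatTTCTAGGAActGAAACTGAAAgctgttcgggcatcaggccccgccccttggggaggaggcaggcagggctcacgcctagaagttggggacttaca
Gbp5: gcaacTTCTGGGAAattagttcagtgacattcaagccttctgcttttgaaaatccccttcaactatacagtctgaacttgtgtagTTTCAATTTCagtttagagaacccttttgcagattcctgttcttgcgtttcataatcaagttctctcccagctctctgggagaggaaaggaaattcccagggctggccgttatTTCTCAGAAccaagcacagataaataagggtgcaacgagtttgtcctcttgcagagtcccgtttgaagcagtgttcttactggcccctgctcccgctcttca
Cxcl10: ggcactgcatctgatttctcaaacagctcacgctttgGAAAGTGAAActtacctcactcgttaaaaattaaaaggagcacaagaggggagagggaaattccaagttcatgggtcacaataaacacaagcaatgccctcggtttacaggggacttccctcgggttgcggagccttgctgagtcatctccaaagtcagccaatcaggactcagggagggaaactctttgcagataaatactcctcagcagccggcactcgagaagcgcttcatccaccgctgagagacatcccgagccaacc
Irf8: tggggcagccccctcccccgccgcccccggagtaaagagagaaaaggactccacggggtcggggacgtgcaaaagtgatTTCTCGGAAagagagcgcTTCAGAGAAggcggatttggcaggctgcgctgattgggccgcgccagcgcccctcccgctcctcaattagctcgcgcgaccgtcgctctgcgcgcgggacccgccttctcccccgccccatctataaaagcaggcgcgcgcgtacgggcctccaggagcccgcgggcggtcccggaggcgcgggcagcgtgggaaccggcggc
They lie at chr11:58199306-58199605, plus strand, at chr3:142496684-142496983, plus strand, at chr5:92348840-92349139, minus strand and at chr8:120736108-120736407, plus strand.

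The machinery that loads peptides on MHC class I rose in part. Of 20 listed genes 18 were tested, 5 rose and 0 fell, with a median of 0.59, while 2.04% of all genes tested rose. Both stress libraries lay above both controls for 13 of the 18, beside 20.8% of all genes. Psmb9, a subunit of the immunoproteasome, went from 157 and 151 to 456 and 497 CPM, a log2 change of 1.62 ± 0.26 (SE; adjusted p = 0.00046) by edgeR. Tap1, which pumps peptides into the endoplasmic reticulum, went from 109 and 94.4 to 320.3 and 371 CPM, a change of 1.74 ± 0.29 (SE; adjusted p = 0.000481). Neither overlapped, and both calls held without each single library. Psmb8, the second immunoproteasome subunit, and Psme2, its activator, rose by 1.00 and 1.26, calls that were lost without stress replicate 2 (log2 change 0.90, adjusted p = 0.246, and 1.03, adjusted p = 0.204). B2m, the light chain of class I, rose by 0.79 (adjusted p = 0.0403) and lost its call without control replicate 2 (log2 change 0.59, adjusted p = 0.182), stress replicate 1 (log2 change 0.92, adjusted p = 0.159) and stress replicate 2 (log2 change 0.68, adjusted p = 0.583). The class I heavy chain H2-K1 stood at 1564 and 1233 CPM in the controls and 2165 and 1999 CPM under stress, without overlap but not past the test (adjusted p = 0.177), and H2-D1 overlapped.

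MHC class II presents peptides to CD4 T cells. Of 15 listed genes tested, Ciita, the master regulator of class II, rose by 1.58 ± 0.34 (SE; adjusted p = 0.00666), from 62.9 and 69.2 to 169 and 222 CPM, and the lysosomal protease Ctsd fell by 1.5 ± 0.37 (SE; adjusted p = 0.0213). The other 13 did not pass, with a list median of -0.21. H2-Ab1 stood at 14198 and 12482 CPM in the controls and 12763 and 10139 CPM under stress and overlapped (log2 change -0.22 ± 0.19 SE, adjusted p = 0.727). The Ciita call was lost without control replicate 1 (log2 change 1.51, adjusted p = 0.0696) and stress replicate 2 (log2 change 1.37, adjusted p = 0.14). The Ctsd call was lost without control replicate 1 (log2 change -1.28, adjusted p = 0.229), stress replicate 1 (log2 change -1.28, adjusted p = 0.249), stress replicate 2 (log2 change -1.73, adjusted p = 0.107) and the 7 cells with Retnla (log2 change -0.86, adjusted p = 0.407).

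Several other genes rose in many cells. Ly6a, the surface antigen Sca-1, stood at 20 and 44 CPM in the controls and 475 and 503.8 CPM under stress and was read in 7 of 75 control cells and 43 of 80 stress cells, a log2 change of 4.10 ± 0.36 (SE; adjusted p = 7.58e-08) by edgeR. Plac8, a small protein of myeloid cells and a monocyte marker, stood at 500.2 and 849 CPM in the controls and 2113 and 1916 CPM under stress and was read in 38 of 75 control cells and 73 of 80 stress cells, a change of 1.61 ± 0.24 (SE; adjusted p = 0.000257). Tgm2, tissue transglutaminase, went from 37.2 and 31.5 to 188 and 222 CPM, a change of 2.53 ± 0.37 (SE; adjusted p = 0.000118). The groups of all 3 were apart. Ifitm1, an interferon-induced membrane protein, rose by 1.88, Samhd1, a nucleotide hydrolase that restricts viruses, by 1.51 (without stress replicate 2, 1.24 (adjusted p = 0.076)), and Fabp5, a fatty acid binding protein, by 2.58. Fabp5 was read in 7 of 75 control cells and 24 of 80 stress cells, with 34.3% of the stress UMIs in 1 cell, and AA467197, which rose by 2.93, in 7 of 75 control cells and 17 of 80 stress cells, with 44.7% in 1 cell. Of the 6 monocyte markers tested beyond those of the rule, Plac8 and Ms4a4c rose and Fn1 fell. The summed level of the list was 2344 and 3945 CPM in the controls and 4561 and 4607 CPM under stress. That sum includes 2 genes that the rule limits. The part of monocyte transcripts in the result was not tested.

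Of 12 heat shock chaperones tested, the inducible pair Hspa1a and Hspa1b rose, beside 2.04% of all genes tested. Hspa1a stood at 263 and 339.7 CPM in the controls and 924 and 1256 CPM under stress, a log2 change of 1.88 ± 0.25 (SE; adjusted p = 4.77e-05) by edgeR, and its close copy Hspa1b went from 71.5 and 50.3 to 195 and 358 CPM, a change of 2.12 ± 0.36 (SE; adjusted p = 0.00102). Their reads may be exchanged, and Hspa1b lost its call without stress replicate 2 (log2 change 1.61, adjusted p = 0.0575). Hspa1a was read in 23 of 75 control cells and 33 of 80 stress cells. The other 10 did not pass, among them Hspa8 at 2475 and 2215 CPM in the controls and 3335 and 3437 CPM under stress (adjusted p = 0.184). Of 24 immediate early genes tested, Jun rose by 1.10 (adjusted p = 0.0315), from 283 and 377 to 902 and 497 CPM, and Jund fell by 1.08 ± 0.22 (SE; adjusted p = 0.00441), from 2441 and 1806 to 1126 and 895 CPM. The Jun call was lost without control replicate 1 (log2 change 0.89, adjusted p = 0.101), stress replicate 1 (log2 change 0.63, adjusted p = 0.515) and the 7 cells (log2 change 0.95, adjusted p = 0.0913), and the Jund call without stress replicate 1 (log2 change -1.23, adjusted p = 0.05) and stress replicate 2 (log2 change -0.92, adjusted p = 0.288). Fos, Egr1, Ier2, Atf3 and Nr4a1 did not pass.

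Of 5 plasma cell markers tested 3 rose, Igkc, Igha and Iglc1, beside 2.04% of all genes tested. The Iglc1 call was lost when control replicate 1 (log2 change 1.78) or stress replicate 2 (log2 change 1.49) was left out. Igkc, the kappa light chain, stood at 257 and 195 CPM in the controls and 865 and 742 CPM under stress (log2 change 1.80 ± 0.25 (SE; adjusted p = 7.12e-05) by edgeR), and Igha, the IgA heavy chain, went from 137 and 107 to 464 and 494 CPM. The summed list of 12 plasma cell markers, 1 of them limited by the rule, stood at 686 and 516 CPM in the controls and 1826 and 1680 CPM under stress. Igkc was read in 62 of 75 control cells and 78 of 80 stress cells. The part of plasma cell RNA in other results was not tested. With every gene left out that was higher in the rest of the kept cells than in cDC2, 116 of 3105 genes changed, among them 66 of the 77 that rose and 45 of the 49 that fell. Summed B cell markers stood at 14.3 to 37.7 CPM over the 4 libraries and summed T cell markers at 43.1 to 107 CPM. Both sums include genes that the rule limits. Summed NK cell markers stood at 206 and 201 CPM in the controls and 357 and 686 CPM under stress. Ccl5 had 7 control and 102 stress UMIs, 88 of the latter in stress 2. Of 3 of them tested Klrk1, the receptor NKG2D, rose, a call lost without control replicate 1 (log2 change 1.23, adjusted p = 0.0621) and stress replicate 2 (log2 change 1.13, adjusted p = 0.16).

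Mgl2 and Tnip3, leading genes of cDC2, fell. Among the given cell type markers outside the rule, Mgl2 (chr11:70130329-70137550) stood at 900.4 and 554 CPM in the controls and 169 and 328 CPM under stress and was read in 49 of 75 control cells and 18 of 80 stress cells. Its groups did not overlap, and it fell by 1.56 ± 0.31 (SE; adjusted p = 0.00632) on the log2 scale by edgeR. Tnip3 (chr6:65525313-65634040) stood at 1241 and 944 CPM in the controls and 600.1 and 401 CPM under stress and fell by 1.14 ± 0.24 (SE; adjusted p = 0.00666). Flt3 stood at 109 and 107 CPM in the controls and 58.9 and 79.5 CPM under stress, without overlap, and did not pass (adjusted p = 0.461). The Mgl2 call was lost without stress replicate 1 (log2 change -1.15, adjusted p = 0.128), and the Tnip3 call without stress replicate 2 (log2 change -0.87, adjusted p = 0.344). With 24 cDC2 drawn from each library the Mgl2 call was lost as well. Clec10a, a close copy of Mgl2 used by the rule, stood at 495 and 239 CPM in the controls and 482 and 454 CPM under stress, and reads of the pair may be exchanged.

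Of 17 genes listed for type 2 and alternative activation, 11 were tested, 0 rose and 4 fell (Retnla, Mgl2, Ccl17 and the eosinophil-associated ribonuclease Ear2), with a median log2 change of -0.94. Of all genes tested 1.3% fell. Ccl17 (chr8:94810453-94812036), the chemokine that draws CCR4-bearing T helper 2 and regulatory cells, stood at 263 and 107 CPM in the controls and 14.7 and 9.94 CPM under stress and fell by 3.97 ± 0.52 (SE; adjusted p = 6.64e-05) on the log2 scale by edgeR without overlap. Its call was lost with plasmacytoid cells let in (log2 change -4.20, adjusted p = 0.0848). It was read in 15 of 75 control cells and 4 of 80 stress cells, with 33.9% of the control UMIs in 1 cell. By library these were 14 cells in control 1, 1 in control 2, 3 in stress 1 and 1 in stress 2. All 17 UMIs of control 2 thus came from 1 cell. Ccl22, the other ligand of CCR4, stood at 217 and 81.8 CPM in the controls and 103 and 33.1 CPM under stress, overlapped and did not pass (adjusted p = 0.389). The interleukin 4 receptor Il4ra went from 97.2 and 44 to 139.9 and 139 CPM and did not pass (adjusted p = 0.272). Without the 7 cells with Retnla, 9 of the list were tested and 2 fell, Mgl2 and Ccl17. Letters of the STAT6 element, TTC and GAA with any 4 bases between them on both strands, were found in the promoters of 3 of 35 genes that fell (8.57%) and of 6.69% of genes tested.

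Other genes of myeloid cells fell. Clec4b1 and Clec4a2, C-type lectins of chromosome 6, went from 206 and 201 to 69.9 and 63 CPM and from 192 and 164 to 62.6 and 43.1 CPM. They fell by 1.61 ± 0.32 (SE; adjusted p = 0.00423) and by 1.77 ± 0.35 (SE; adjusted p = 0.00352) by edgeR, and both calls were lost without stress replicate 2 (log2 change -1.54, adjusted p = 0.0891, and -1.52, adjusted p = 0.127). Wnt11, a secreted Wnt ligand and a leading gene of these cells, went from 197 and 189 to 40.5 and 69.6 CPM and fell by 1.79 ± 0.35 (SE; adjusted p = 0.00314), a call lost without stress replicate 1 (log2 change -1.45, adjusted p = 0.0926). Trf, the iron carrier transferrin, went from 557 and 315 to 125 and 176 CPM and fell by 1.57 ± 0.30 (SE; adjusted p = 0.00354), a call lost without control replicate 1 (log2 change -1.05, adjusted p = 0.105) and stress replicate 1 (log2 change -1.32, adjusted p = 0.102). None of the 4 overlapped. DESeq2 did not call Clec4b1, Clec4a2 and Wnt11 (adjusted p = 0.173, 0.177 and 0.131). Batf, an AP-1 partner of IRF4, fell by 1.59, a call lost without control replicate 1 (log2 change -1.36, adjusted p = 0.0976), stress replicate 1 (log2 change -1.55, adjusted p = 0.0918) and stress replicate 2 (log2 change -1.60, adjusted p = 0.113). Epcam, which intestinal dendritic cells and epithelium both express, went from 160.1 and 75.5 to 44.2 and 33.1 CPM and fell by 1.71 ± 0.41 (SE; adjusted p = 0.0172), a call lost without control replicate 1 (log2 change -0.96, adjusted p = 0.578), stress replicate 1 (log2 change -1.89, adjusted p = 0.0969) and stress replicate 2 (log2 change -1.51, adjusted p = 0.269), while the summed epithelial markers stood at 172 and 94.4 CPM in the controls and 51.5 and 46.4 CPM under stress. Epcam gave 68 of the control and 22 of the stress UMIs of that list. Each of its other 8 genes had 0 to 3 UMIs in either group. The part of epithelial RNA was not tested.

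Part of the fall rested on the 7 control cells with Retnla. Retnla itself (chr16:48842551-48844461) stood at 452 and 591 CPM in the controls and 0 and 0 CPM under stress. Its 252 UMIs all came from those 7 cells, so stress was at least 89.3-fold lower, against a floor of 3 counts over the group. They held 99.4% of the control UMIs of Lpl (lipoprotein lipase), 98.0% of Fcrls (an Fc receptor-like scavenger receptor), 83.0% of Fn1 (fibronectin) and 50.5% of the chemokine Ccl6. Without them Fn1 had a log2 change of -0.91 (adjusted p = 0.814) and Ccl6 of -0.15 (adjusted p = 0.901) by edgeR, and Retnla, Lpl and Fcrls were too low to be tested. Of other genes that fell they held 5.71% of the Mgl2 UMIs, 12.2% of Tnip3, 2.04% of Trf and 0% of Ccl17 and of the elastase Mmp12. Mmp12 was read in 6 of 75 control cells and 1 of 80 stress cells and fell by 2.97. Its call was lost without stress replicate 2 (log2 change -1.94) and under other alternatives. Among them were doublets left out (adjusted p = 0.0545 by edgeR), an identity threshold of 3 UMIs (adjusted p = 0.0885 by edgeR) and DESeq2 (adjusted p = 0.196). Of 8 macrophage markers tested beyond the rule, Aif1 rose and Cd81 and Pltp fell. The Aif1 call was lost without control replicate 2 (log2 change 0.81, adjusted p = 0.145), stress replicate 1 (log2 change 1.46, adjusted p = 0.0681), stress replicate 2 (log2 change 0.99, adjusted p = 0.457) and the 7 cells (log2 change 1.08, adjusted p = 0.0553), and the Pltp call without stress replicate 2 (log2 change -1.43, adjusted p = 0.209) and the 7 cells (log2 change -1.06, adjusted p = 0.125). The summed list, which includes 3 genes limited by the rule, stood at 1929 and 1107 CPM in the controls and 1384 and 1647 CPM under stress.

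**Figure D3:**
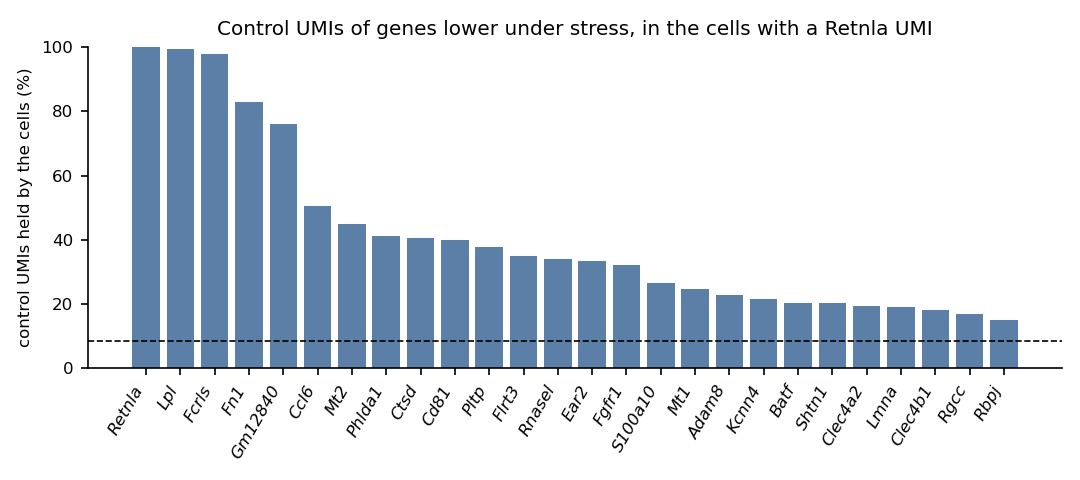
Share of the control cDC2 UMIs that came from the 7 cells with a Retnla UMI, for the 26 genes with the highest share among those lower under stress. The dashed line is the 8.53% of all control UMIs that these cells held; Retnla is at 100% by their choice.

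The metallothioneins, which bind zinc and are raised by metals and by glucocorticoids, fell. Mt1 (chr8:94179082-94180327) stood at 1769 and 705 CPM in the controls and 199 and 152 CPM under stress and fell by 2.84 ± 0.46 (SE; adjusted p = 0.0257) on the log2 scale by edgeR. Mt2 (chr8:94172664-94173568) stood at 106 and 132 CPM in the controls and 3.68 and 0 CPM under stress, read in 19 of 75 control cells and 1 of 80 stress cells. It held 58 UMIs in the controls and 1 under stress, a pooled level 61.7 times as high in the controls (95% exact counting interval 10.6 to 2477; adjusted p = 1.72e-05 by edgeR). Neither overlapped. The 7 cells with Retnla held 24.8% of the control UMIs of Mt1 and 44.8% of those of Mt2. Without them Mt1 had a log2 change of -2.48 (adjusted p = 0.529) and Mt2 was not tested, and without stress replicate 2 Mt1 had one of -2.66 (adjusted p = 0.0836). The promoter of Mt2 (chr8:94172368-94172667, plus strand) is shown because it held 6 matches of the metal response letters TGCNCNC on either strand (in capitals), and 0.263% of all listed genes held as many. At least 1 match was found for 62.0% of genes tested that have a listed promoter. It was found for 17 of 35 genes that fell (48.6%) and for 37 of 54 that rose (68.5%).
Mt2: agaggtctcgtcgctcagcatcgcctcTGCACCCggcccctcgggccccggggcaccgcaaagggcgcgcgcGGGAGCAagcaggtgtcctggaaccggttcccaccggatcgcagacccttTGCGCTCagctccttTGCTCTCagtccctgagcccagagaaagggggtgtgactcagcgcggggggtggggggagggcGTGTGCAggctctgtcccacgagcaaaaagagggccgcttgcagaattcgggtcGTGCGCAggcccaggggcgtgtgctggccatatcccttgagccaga

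Glucocorticoids are the adrenal hormones released under restraint, and 14 of 20 listed targets were tested. Mt1 and Mt2 fell, Ddit4, an inhibitor of mTOR, rose by 1.66 ± 0.43 (SE; adjusted p = 0.0308), and 11 did not pass, with a list median of -0.22. The Ddit4 call was lost without each single library, with log2 changes of 1.42 to 2.27 by edgeR. Tsc22d3, the leucine zipper GILZ and a direct target, stood at 174 and 233 CPM in the controls and 173 and 222 CPM under stress (log2 change -0.0038, adjusted p = 0.997). The receptor Nr3c1 stood at 48.6 and 62.9 CPM in the controls and 47.9 and 53 CPM under stress, and Fkbp5 was too low to be tested. Il1r2, the decoy receptor of interleukin 1 and another target, went from 1229 and 585 to 780.4 and 365 CPM and overlapped.

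The signals that dendritic cells give to T cells showed no call. None of the 8 costimulatory and coinhibitory ligands tested passed by edgeR, with a median of 0.06. Cd86 stood at 172 and 233 CPM in the controls and 309 and 212 CPM under stress, Cd40 at 163 and 69.2 CPM in the controls and 118 and 129 CPM under stress and Cd274, the ligand PD-L1, at 57.2 and 62.9 CPM in the controls and 81 and 106 CPM under stress. The first 2 overlapped. Of the cytokines, 6 of 20 were tested and none passed. Il1b, interleukin 1 beta, stood at 4431 and 3026 CPM in the controls and 5261 and 5800.2 CPM under stress, without overlap (log2 change 0.56 ± 0.21 SE, adjusted p = 0.184). Il12b was read in 1 control cell, Il23a in 2 control cells and 1 stress cell and Il6 in 7 control and 2 stress cells, too few to be tested. None of 24 NF-kB genes passed (median -0.16), nor any of 15 chemokine and growth factor receptors, 16 glycolysis genes and 10 cell cycle genes. Nor did any of 20 listed genes of antigen uptake and the lysosome, a list without Ctsd, which was counted with class II. At an unadjusted p under 0.05, 515 genes passed over the whole table.

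Of 15 maturation and migration genes tested, Il4i1, an amino acid oxidase of mature dendritic cells, rose by 2.92 ± 0.64 (SE; adjusted p = 0.00865), and Ccl17 and Marcks fell. Il4i1 was read in 4 of 75 control cells and 9 of 80 stress cells, and its call was lost without stress replicate 2 (log2 change 2.50, adjusted p = 0.607). The list median was -0.05. Marcks, a substrate of protein kinase C, fell by 0.92 (adjusted p = 0.046), and this call was lost under 12 alternatives, among them each of control replicate 1 (log2 change -0.58, adjusted p = 0.489), stress replicate 1 (log2 change -1.07, adjusted p = 0.164) and stress replicate 2 (log2 change -0.75, adjusted p = 0.625) left out. Ccr7, the receptor that leads dendritic cells to the lymph node, stood at 289 and 164 CPM in the controls and 276 and 182 CPM under stress (log2 change -0.05, adjusted p = 0.979) and overlapped. Aldh1a2, which makes retinoic acid, was read in 5 control cells and 1 stress cell, and the integrin Itgae, or CD103, went from 88.6 and 31.5 to 36.8 and 23.2 CPM and overlapped.

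Shares of cells carrying a transcript were compared after each cell was thinned to 1000 UMIs, which no cell fell short of. With 2 libraries against 2, the exact two-sided permutation test cannot give less than p = 0.33. Plac8 was read in 27.5 and 29.2% of control and 66 and 76.7% of stress cDC2. Cxcl9 or Cxcl10 was read in 9.80 and 4.17% against 20 and 40%. Mgl2 was read in 33.3 and 33.3% of control and 12 and 20% of stress cells, and Mt1 or Mt2 in 35.3 and 37.5% against 12 and 6.67%. For each of these the groups were apart after thinning (exact permutation p = 0.33). As a guide to free RNA, B cells gave 0 to 1.33% for Cxcl9 or Cxcl10 and 0 to 0.33% for Mgl2, which they should lack, at the same depth. Mt1 or Mt2, which B cells may express themselves, came to 0 to 1.00%. Up to 300 B cells were drawn per library after 8, 45, 151 and 17 shallower ones were left out. The unthinned median was 1874 to 3463 UMIs in B cells and 5753 to 11022 in cDC2. B cells are no guide for Plac8, which they express (33.0 to 35.3%).

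**Figure D4:**
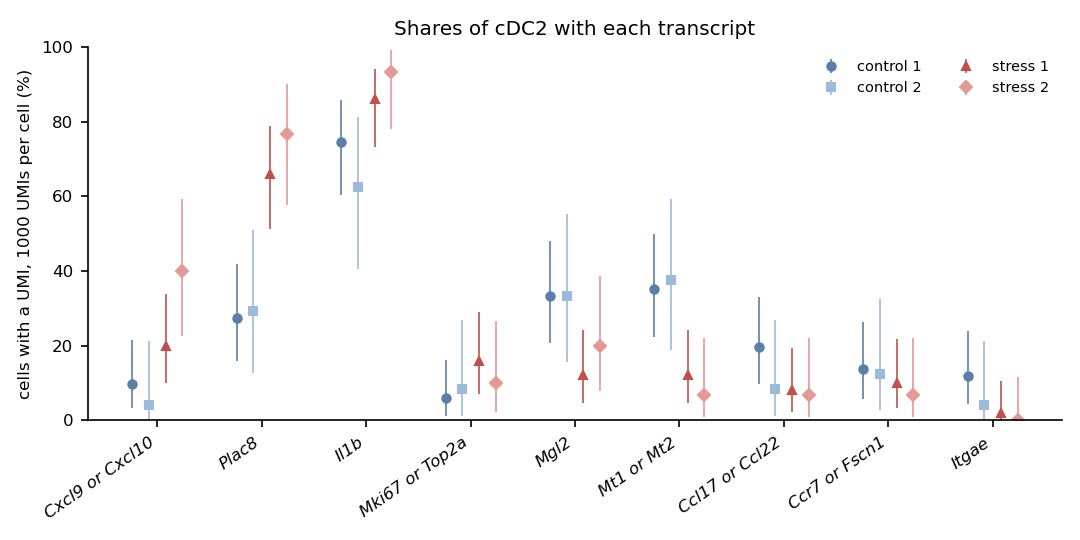
Share of cDC2 with at least 1 UMI of each transcript after thinning to 1000 UMIs per cell, 1 point per library with its exact 95% binomial interval, which covers counting error only. Stress points lie above the controls for Plac8 and below them for Mgl2 and the metallothioneins.

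Interleukin 1 beta was read in 74.5 and 62.5% of control and 86 and 93.3% of stress cells, and Mki67 or Top2a, genes of dividing cells, in 5.88 and 8.33% against 16 and 10%. Shares were lower in both stress libraries for Ccr7 or Fscn1 (13.7 and 12.5% against 10 and 6.67%), Itgae (11.8 and 4.17% against 2 and 0%) and Ccl17 or Ccl22 (19.6 and 8.33% against 8 and 6.67%). The exact permutation p was 0.33 for each. A share of 0 in 30 cells allows up to 10% of cells with a UMI. Without thinning, the groups overlapped for these 5 and for Cxcl9 or Cxcl10 (35.3 and 4.17% against 28 and 60%), and were apart for Mgl2 (68.6 and 58.3% against 18 and 30%), for Mt1 or Mt2 (68.6 and 66.7% against 30 and 43.3%) and Plac8 (51.0 and 50% against 92 and 90%). As a guide to free RNA, B cells gave 0.667 to 3.33% for Il1b. For Ccr7 or Fscn1 they gave 24 to 52.7% and are no guide, since they express Ccr7 themselves.

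Some cells held both the chemokine and the lectin transcripts. Without thinning, 32 of 80 stress cells held Cxcl9 or Cxcl10, 18 held Mgl2 or Retnla, and 7 held both. Of 75 control cells 19, 49 and 14 did. In control 1 the counts were 18, 35 and 14 of 51 cells and in control 2 they were 1, 14 and 0 of 24. In stress 1 they were 14, 9 and 3 of 50 cells and in stress 2 they were 18, 9 and 4 of 30.

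The number of cDC2 gave no ordered difference among all kept cells. They made up 2.00% (95% exact interval 1.5 to 2.63) of control 1, 0.442% (0.283 to 0.656) of control 2, 0.601% (0.446 to 0.792) of stress 1 and 0.727% (0.491 to 1.04) of stress 2. Stress lay between the controls (exact permutation p = 1). Among gated myeloid cells, that is cDC2 with type 1, plasmacytoid, monocyte and macrophage gates, the share was 17.2 and 20.3% in the controls and 11.2 and 10.4% under stress (exact permutation p = 0.33, the smallest possible). Among gated dendritic cells it was 67.1 and 48.0% against 60.2 and 54.5%. The type 1 gate held 25, 24, 15 and 17 cells, the plasmacytoid gate 0, 2, 18 and 8, and the monocyte gate 40, 39, 216 and 108. A share can move through any other type of its denominator.

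Plasmacytoid cells, the specialist makers of type I interferon, were kept out by the rule. Their gate held 0 and 2 cells of 2546 and 5436 kept in the controls and 18 and 8 of 8319 and 4127 under stress. Among cells with the naming genes and few C1q UMIs, the Siglech limit removed 2 and 8 in the controls and 15 and 12 under stress. Of 4 of their markers tested beyond the rule, Lair1, an inhibitory collagen receptor, rose by 2.94 ± 0.66 (SE; adjusted p = 0.00917), a call lost without stress replicate 1 (log2 change 2.62, adjusted p = 0.462) and stress replicate 2 (log2 change 3.23, adjusted p = 0.0656). Tcf4 and Bst2 did not pass. The summed list stood at 552 and 403 CPM in the controls and 604 and 736 CPM under stress, and Siglech at 0 by the rule. Leaving out cDC2 with 2 or more UMIs over 7 further plasmacytoid genes gave 99 calls, 98 of them among the 126. Lifting the Siglech limit alone added no cell, since the other limits removed the same cells. Letting in cells with Siglech and the naming genes whatever their monocyte and type 1 genes raised the cells from 51, 24, 50 and 30 to 52, 31, 63 and 41 and gave 34 calls, all among the 126. What the lifted limits each did to that number was not tested. Calls lost with them included Ly6a (log2 change 2.54, adjusted p = 0.35), Plac8 (log2 change 1.12, adjusted p = 0.296), Tap1 (log2 change 1.42, adjusted p = 0.0604), Irf8 (log2 change 2.12, adjusted p = 0.738) and Gbp2 (log2 change 2.57, adjusted p = 0.156).

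The stress change of cDC2 was then set against that of monocytes and macrophages of the same libraries. Against the monocyte gate the change differed for 5 of 4519 genes (0.111%; 0.0221% positive and 0.0885% negative) by edgeR's test of the interaction with the library as a block. Ifi47 rose by more in cDC2, a difference of 3.19 ± 0.51 (SE; adjusted p = 0.0239) on the log2 scale, its change in monocytes being 0.85 ± 0.35. Lpl, Fn1, Mt1 and the nuclear lamin Lmna had the more negative change in cDC2. Without the 7 cells with Retnla no gene passed, 361 having an unadjusted p under 0.05, and the difference of Ifi47 was 3.07 (adjusted p = 0.0762). Leaving out a library gave 0 to 29 genes, 0 without control replicate 1, 29 without stress replicate 1 and 15 without stress replicate 2.

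For most interferon genes the test of the difference did not pass against monocytes, which does not show that they moved alike. The difference was 3.64 ± 0.65 (SE; adjusted p = 0.0759) for Ly6a, 2.56 ± 0.49 (SE; adjusted p = 0.0759) for Zbp1 and 2.23 ± 0.45 (SE; adjusted p = 0.096) for Irf8, all more positive in cDC2. For Irf1 it was 0.24 ± 0.38 (SE; adjusted p = 0.932) and for Tap1 0.49 ± 0.36 (SE; adjusted p = 0.792).

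**Figure D5:**
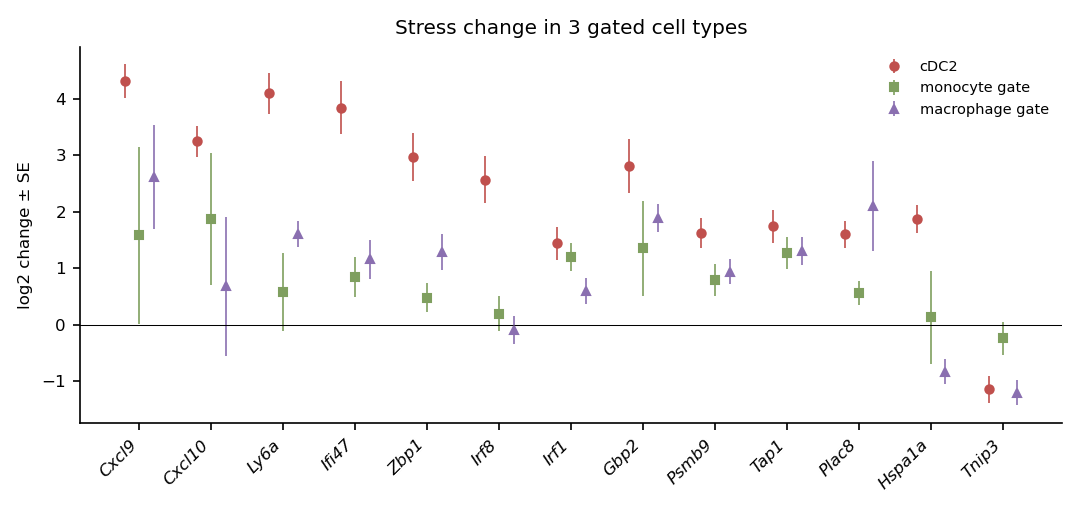
Log2 change with its SE, stress against control, of 13 genes in cDC2 (circles), the monocyte gate (squares) and the macrophage gate (triangles), each from its own edgeR fit over the same 4 libraries. The cDC2 change is the more positive for Ly6a, Ifi47, Zbp1 and Irf8, and for Tnip3 the change is -1.14 in cDC2 and -1.20 in the macrophage gate.

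Against the macrophage gate, which held only 29 cells in control 2 and was fitted after seeing the data, the change differed for 22 of 4961 genes (0.443%; 0.282% positive and 0.161% negative). Hspa1a led with a difference of 2.72 ± 0.30 (SE; adjusted p = 3.66e-07), its change in macrophages being -0.83 ± 0.22. Irf8 differed by 2.73 ± 0.45 (SE; adjusted p = 0.00125), Ly6a by 2.52 ± 0.41 (SE; adjusted p = 0.000492) and Ifi47 by 2.56 ± 0.59 (SE; adjusted p = 0.0299), all more positive in cDC2. Ccl17 differed by -5.11 ± 0.89 (SE; adjusted p = 0.000976) and the migration receptor Ccr7 by -2.08 ± 0.43 (SE; adjusted p = 0.00943), both more negative in cDC2. In cDC2 alone Ccr7 had a log2 change of -0.05 and did not pass (adjusted p = 0.979 by edgeR). Mgl2 and Tnip3 fell in macrophages too (-1.74 ± 0.23 and -1.20 ± 0.22 SE), with differences of 0.13 ± 0.32 (SE; adjusted p = 0.979) and 0.02 ± 0.31 (SE; adjusted p = 0.999). Without the 7 cells 14 genes passed, Hspa1a, Ly6a, Ccl17, Ccr7 and Irf8 (adjusted p = 0.0219) among them but not Ifi47 (adjusted p = 0.0814), and without stress replicate 1 the number was 48.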

How the data were processed

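The deposited matrices hold UMI counts for each gene and barcode. Per the submitters' processing notes they come from Cell Ranger (named as 5 and as 5.0) and mm10, while the matrix headers name software 3.1.0. No source used here names the annotation release. The members and gene lists were chosen with earlier results of these data known. UMIs were summed over the cDC2 of each library and tested with edgeR 4.0.16 (R 4.3.3; TMM, filterByExpr by group, robust quasi-likelihood fit, Benjamini-Hochberg), with no block, since the labels do not pair libraries. DESeq2 1.42.0 was an alternative, and the calls it did not share are not named for every gene. The comparison gates used at least 2 UMIs of Xcr1 and Clec9a, of Siglech, or of Ly6c2 and Chil3, or at least 10 C1q UMIs, each free of the other types' genes. B cells were cells with at least 4 Cd79 UMIs. Doublets were marked with Scrublet in scanpy 1.11.5; its automatic threshold marked under 0.5% of each library, so the expected share of 0.8% per 1000 barcodes was left out in an alternative. Genes are named by the given markers, by smallest p in each direction with a mean of at least 50 CPM, by level and p within each list, and by a short fixed list of dendritic cell genes; others named (Igtp, the Gbp genes, Irf7, Oasl2, Ifi204, Samhd1, Batf, Mmp12, Iglc1) were chosen after their values were seen. Coordinates are from GENCODE vM21 on GRCm38, promoters from RefSeq on GRCm38.p6. Intervals and floors cover counting error only. The results of 1 listed gene are not reported here, though counts over all genes and lists include it.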

Additional observations from a re-analysis of the deposited data

Results flagged for a closer look

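The stress change differed between cDC2 and another gated cell type of the same libraries for the genes given here, each by edgeR's test of the interaction. Differences are log2 changes in cDC2 minus those in the other gate. Against the macrophage gate they were positive for Hspa1a 2.72 (adjusted p = 3.66e-07), Dnase1l3 4.33 (adjusted p = 8.26e-05), Hspa1b 2.41 (adjusted p = 0.000107), Jun 2.01 (adjusted p = 0.000107), Ly6a 2.52 (adjusted p = 0.000492), Irf8 2.73 (adjusted p = 0.00125), Ccl3 3.28 (adjusted p = 0.00449). They were positive as well for Ifi207 1.61 (adjusted p = 0.00915), Fam26f 4.32 (adjusted p = 0.00943), Lair1 2.97 (adjusted p = 0.0125), Ifi47 2.56 (adjusted p = 0.0299), Scimp 1.77 (adjusted p = 0.0319) and Egr1 2.45 (adjusted p = 0.0416). They were negative for Ccl17 -5.11 (adjusted p = 0.000976), Fn1 -2.03 (adjusted p = 0.00365), Lmo4 -1.80 (adjusted p = 0.00449), Retnla -6.25 (adjusted p = 0.00943), Ccr7 -2.08 (adjusted p = 0.00943), Arl5c -1.56 (adjusted p = 0.00943), Hilpda -1.42 (adjusted p = 0.0299), Dusp16 -2.58 (adjusted p = 0.0299). The value of Retnla is no bound, since stress cDC2 held none of it. A difference may come from a change in either gate, and Ccr7 did not pass in cDC2 alone (log2 change -0.05). Against the monocyte gate they were Lpl -4.72 (adjusted p = 0.00245), Fn1 -2.96 (adjusted p = 0.00245), Mt1 -2.42 (adjusted p = 0.0142), Ifi47 3.19 (adjusted p = 0.0239), Lmna -1.90 (adjusted p = 0.037). The part of cells with Retnla in these values is given in the results, and 14 of the 22 and 0 of the 5 passed without them.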

How the results depend on the processing

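Of 176 named genes tested, 61 passed, and none of these changed direction. Of them 13 were tested and passed under all 17 alternatives. Retnla, Mt2 and Fcrls passed wherever they were tested, which they were not without the cells with Retnla. Apoe, which did not pass, had log2 changes of -0.89 to 1.48 without a library, the last without control replicate 1 (adjusted p = 0.00189 by edgeR). Of the 126 genes called, 41 were called by DESeq2 and 34 with plasmacytoid cells let in, and leaving out a library gave 42 to 179. Without stress replicate 2, 27 of the 61 lost their call. The replicate number pairs nothing by design, and same-numbered libraries did not deviate together (correlation -0.00797). A replicate block gave 108 calls, 102 of them among the 126. Of the genes named it lost Mgl2 (adjusted p = 0.0741), Jun (0.0545), Rbpj (0.0805), Aif1 (0.104), Mmp12 (0.101), Oasl2 (0.0595) and Iglc1 (0.0575), by edgeR, and Icam1 then fell. With a library left out, the lone library of its group is assumed to vary like the other group. No filter on low counts gave 172 of 11613 genes. The interaction against the monocyte gate passed for 0 to 29 genes without a library and for 0 without the cells with Retnla, and that against the macrophage gate for 24 to 48 and for 14. The difference in the share of kept cells (stress minus control, percentage points) was -0.56 and ran from -1.34 to 0.222 without a library, the last without control replicate 1. The difference in the share of gated dendritic cells was -0.16 and ran from -9.71 to 9.39, above 0 without control replicate 1 and without stress replicate 2 (2.69). Without thinning, the difference for Il1b was 8.02 points, against 21.2 with it. These alternatives beyond the library, normalization and threshold ones were chosen after seeing the data: cells with Retnla, plasmacytoid cells let in, genes higher in the rest left out and the macrophage gate. The 24 cDC2 of control 2 and 167135 UMIs limit the low genes most. The causes of these changes were not tested.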
